A study of Homo sapiens with 4 samples.

Results

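The receptor-type (PTPR) and non-receptor (PTPN) protein tyrosine phosphatases were followed in U87 glioma cells with and without knockdown of PTPRN, itself a member of the receptor-type family. The members were taken by gene symbol, as every listed gene named PTPR or PTPN with its family letter or number, and PTPRN and its paralogue PTPRN2 were left out. This gave 35 of the 19314 genes listed, 18 of the receptor type and 17 of the non-receptor type. A value in at least 1 library was present for 34 of them, which is also how many were tested, among 16595 genes tested in all. The remaining member, PTPRT, was listed without a value in any library.

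The 4 libraries were of total RNA from U87, an established human glioma line. The knockdown group held 2 libraries with the genotype given as PTPRN knockdown and titled PTP2, and the control group held 2 libraries with the genotype SCR, a scrambled short hairpin. Both groups carried a short hairpin vector, which is thus common to all 4 libraries. The labels do not state which hairpin, or how many, the knockdown libraries received. An effect of a hairpin on other transcripts cannot be told apart from an effect of losing PTPRN. The labels do not say that the replicates were separate cultures, so the p-values measure the spread between these libraries only, which may be technical. The growth protocol in the labels names hCMEC/D3, a brain endothelial line, although the cell line label is U87. Endothelial marker transcripts were low, with 8 of 10 below 1 FPKM in all 4 libraries and CDH5 and CLDN5 at 0.03 FPKM or less. The others were PECAM1 and TEK. PECAM1 stood at 1.21 and 1.26 FPKM in the knockdown and at 2.39 and 2.50 FPKM in SCR. TEK stood at 0.97 and 1.08 FPKM against 0.45 and 0.60 FPKM. CDKN2A and MTAP, which U87 cells have lost by deletion, lay at no more than 0.05 and 0.34 FPKM. Of the glial markers, VIM and CD44 were abundant, GFAP did not exceed 0.55 FPKM and AQP4 had no value.

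Protein tyrosine phosphatases remove phosphate from tyrosine residues and so oppose the tyrosine kinases. The receptor-type enzymes span the membrane, and many carry adhesion-molecule ectodomains that bind proteoglycans, contactins or a copy of themselves on the next cell. The non-receptor enzymes sit in the cytosol, at the endoplasmic reticulum or at the cytoskeleton, where their extra domains (SH2, FERM, PDZ or proline-rich) decide which kinases, adaptors and junction proteins they reach. PTPRN and PTPRN2 lack ordinary catalytic activity towards phosphotyrosine and are known from the dense-core vesicles of neuroendocrine cells.

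The knockdown was visible in the target. PTPRN stood at 12.09 and 11.68 FPKM (a level scaled for transcript length and for the reads in the library) in the knockdown libraries and at 84.84 and 85.02 FPKM in the SCR libraries. The difference on the log2(FPKM + 1) scale was -2.74 (SE 0.03, limma adjusted p = 0.000148), and the means differed 7.15-fold. In RNA from whole cultures, fewer cells with a transcript and less of it per cell cannot be told apart, for PTPRN or for any gene that follows. PTPRN2 stood at 10.58 and 10.19 FPKM against 15.53 and 15.07 FPKM, a log2 difference of -0.52 (SE 0.04, limma adjusted p = 0.00126).

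The hairpin that shares its number with the PTP2 libraries, shPTPRN-2, targets 21 bases in exon 6 of PTPRN, in the coding sequence, at chr2:219302373-219302393 on the minus strand of GRCh38. The labels do not state that PTP2 libraries received this hairpin, so the match is by number. The target is shown together with the closest stretch in the 4 family members whose coding-gene transcripts came nearest to it, since those are the members where pairing along the whole hairpin would be best. In the target line the capitals mark the 7 bases that would pair with the seed of the guide strand, if the guide starts opposite the last base of the target. In the other lines the capitals mark mismatches to the target.
shPTPRN-2 target: aactgcctccaagGGCATATt
PTPN11: aactgcAtTGaGggAcatTtt
PTPRO: aactCAcCccaGgAgTatatt
PTPRS: aGctgGAtccaGgggcTCatt
PTPRZ1: TTctAGcAccaagggcatGtt

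Each of these 4 stretches differed from the target at 6 positions, and the closest stretch in any of the other members differed at 7 to 9. None of the 4 stretches keeps the seed-match letters in full. How near genes outside the family come to the target was not searched. The PTPN11 stretch lies in exon 11 of a transcript where it is 3′ UTR (chr12:112486760-112486780, plus strand). That of PTPRS lies in exon 4 of a transcript where it is 3′ UTR (chr19:5273072-5273092, minus strand). Those of PTPRO (exon 22, chr12:15580703-15580723, plus strand) and PTPRZ1 (exon 12, chr7:122012322-122012342, plus strand) are coding. The seed-matched letters GGCATAT were present in the 3′ UTR of 1032 of 16116 tested genes with a matched GENCODE transcript (6.4%). Of the 33 tested members whose transcript used here has a 3′ UTR, 1 held them there, PTPN14, in exon 19 at chr1:214353659-214353665 on the minus strand. That site is printed with 8 bases on either side, the seed match in capitals.
PTPN14 3′ UTR: ggccatcaGGCATATcactctgg
The PTPRU transcript used had no 3′ UTR, and none of the coding-gene transcripts of PTPRU held the letters anywhere. Elsewhere than in the 3′ UTR used here, the letters were present in 5 of 7 coding-gene transcripts of PTPN13, 1 of 2 of PTPN23, 1 of 6 of PTPN11 and 1 of 25 of PTPN20.

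The 4 libraries held about 16800000 and 17100000 reads (knockdown) and 18500000 and 17100000 reads (SCR), as estimated from the FPKM worth of 1 read in short genes. Between 11080 and 11252 genes reached 1 FPKM. Libraries of the same group correlated across genes at 0.9986 or higher and libraries of different groups at 0.9617 or lower, with genes not being independent replicates. Over all genes tested, 30.8% were higher and 27.1% lower in the knockdown at a limma adjusted p of 0.05. At a fold change of at least 2 with an adjusted p of at most 0.001, 2.63% were higher and 4.06% lower.

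Of the 34 phosphatases tested, 5 rose (14.7%, against 30.8% of all genes) and 14 fell (41.2%, against 27.1%) at an adjusted p of 0.05, and 15 (44.1%) did not pass. Under the stricter rule 1 rose, PTPN12 (2.94%, against 2.63% of all genes), and 5 fell, PTPRS, PTPRU, PTPN13, PTPRG and PTPN21 (14.7%, against 4.06%). The median log2 difference over the members was -0.07, beside 0.01 over all genes tested. The members are long genes, with a median longest transcript of 5878 bases against 3056 over all genes tested, and genes of 5000 bases or more had a median log2 difference of -0.01. The receptor and non-receptor members differed in direction by count: of 17 receptor-type genes tested 1 rose and 9 fell (median -0.20), and of 17 non-receptor genes 4 rose and 5 fell (median 0.01). This difference between the classes was not tested. The plots of levels per library and of log2 differences show the members with a mean of at least 1 FPKM in the higher group, 24 in number.

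**Figure D1:**
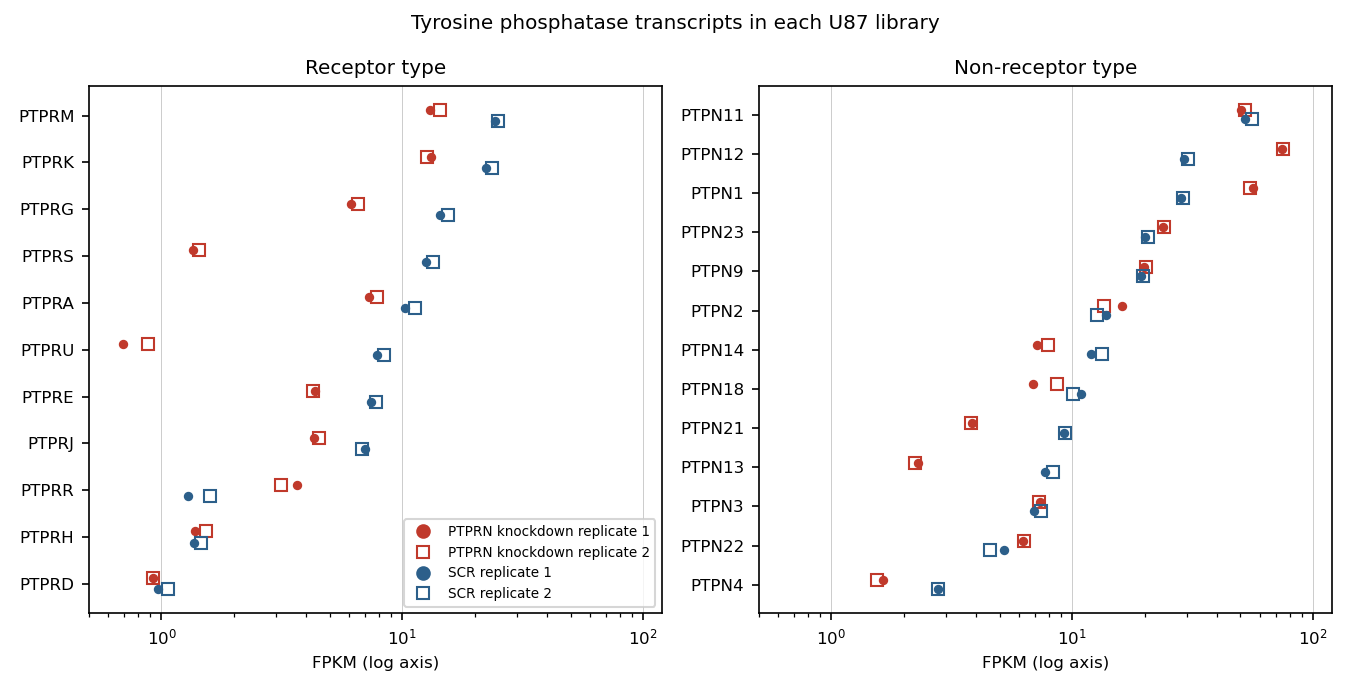
FPKM (log axis) of the 24 phosphatase genes with a mean of at least 1 FPKM in the higher group, receptor type and non-receptor type in separate panels, with 1 symbol for each of the 4 libraries. The widest gaps between the groups are those of PTPRS (1.35 and 1.43 against 12.54 and 13.47 FPKM) and PTPRU (0.69 and 0.88 against 7.87 and 8.40 FPKM).

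**Figure D2:**
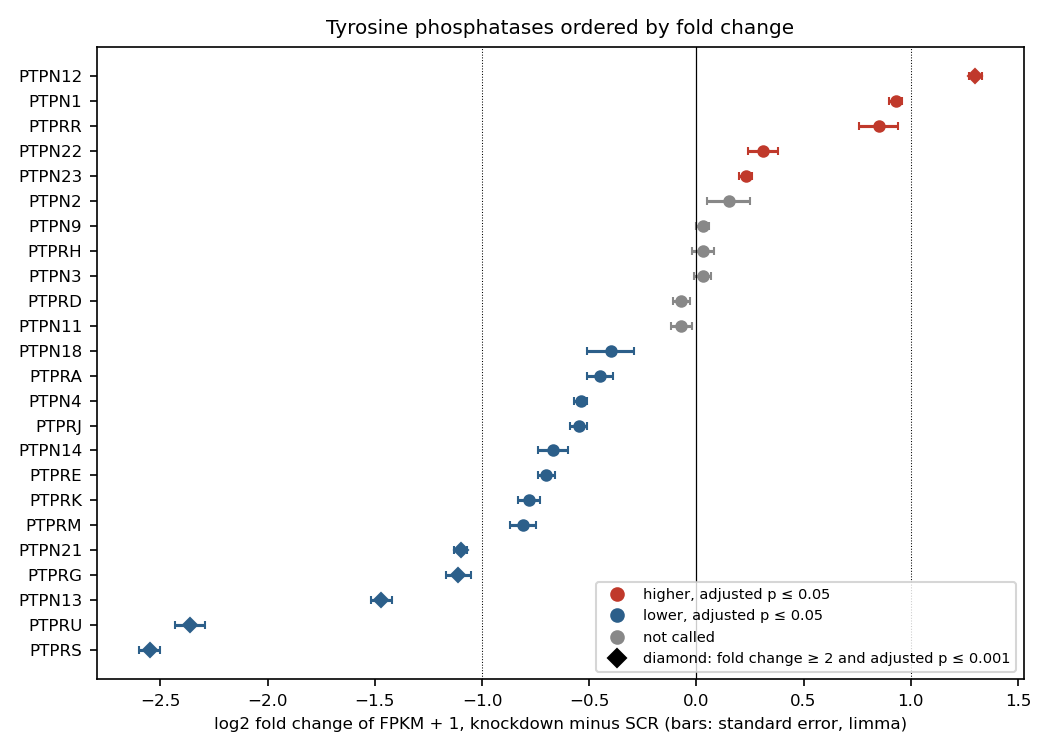
Log2 fold change of FPKM + 1, knockdown minus SCR, for the same 24 genes in order of fold change, with the standard error from limma as bars and diamonds for a fold change of at least 2 with an adjusted p of at most 0.001. The order runs from PTPRS at -2.55 to PTPN12 at 1.30.

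The 2 largest falls were those of the adhesion-type receptors PTPRS and PTPRU, and the receptor PTPRG also passed the stricter rule. PTPRS (gene ID 5802; chr19:5205508-5340803, minus strand, GRCh38), a LAR-type receptor for heparan and chondroitin sulfate proteoglycans known from axon growth, stood at 1.35 and 1.43 FPKM in the knockdown and at 12.54 and 13.47 FPKM in SCR. This is about 167 and 180 reads against 1700 and 1688. The groups lay far apart, with both knockdown libraries near 1 FPKM, and the means differed 9.36-fold (log2 difference -2.55, SE 0.05, limma adjusted p = 0.000206). In the ranking of all genes by level, PTPRS went from position 5243 in SCR to 10676 in the knockdown. PTPRU (gene ID 10076; chr1:29236516-29326813, plus strand), a MAM-domain receptor of cell contacts, stood at 0.69 and 0.88 FPKM against 7.87 and 8.40 FPKM, about 65 and 85 reads against 817 and 806. Its means differed 10.4-fold, while the log2 difference was -2.36 (SE 0.07, limma adjusted p = 0.000336), smaller than that of PTPRS because 1 is added to each FPKM. PTPRG (gene ID 5793; chr3:61561569-62294898, plus strand), which carries a carbonic anhydrase-like domain and binds contactins, stood at 6.12 and 6.58 FPKM against 14.33 and 15.50 FPKM. The groups did not overlap and the means differed 2.35-fold (log2 difference -1.11, SE 0.06, adjusted p = 0.000698). An antisense gene, PTPRG-AS1, overlaps 1207 of the 14629 exon bases of PTPRG, and reads of the 2 genes cannot be told apart where strand was not used in counting.

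The promoters of PTPRS and PTPRU, the members with the lowest log2 differences, shared a sequence feature. The search was not planned beforehand, and the feature was singled out with the values of both genes known. A short list of motifs was searched in RefSeq promoters (GRCh38.p14, 250 bases before to 50 bases after the start), 49 promoters of 31 member genes among 35116. Both strands were searched, except for the TATA box, which was searched on the gene strand only. The full cyclic AMP response element TGACGTCA was found in 2 member promoters, those of PTPRS and PTPRU, and in 649 of all promoters (1.85%). It began 54 bases before the start in PTPRS and 48 bases before it in PTPRU. Both promoters are printed, 5′ to 3′ along the gene, with the element in capitals: PTPRS at chr19:5340763-5341062 (minus strand) and PTPRU at chr1:29236272-29236571 (plus strand).
PTPRS promoter: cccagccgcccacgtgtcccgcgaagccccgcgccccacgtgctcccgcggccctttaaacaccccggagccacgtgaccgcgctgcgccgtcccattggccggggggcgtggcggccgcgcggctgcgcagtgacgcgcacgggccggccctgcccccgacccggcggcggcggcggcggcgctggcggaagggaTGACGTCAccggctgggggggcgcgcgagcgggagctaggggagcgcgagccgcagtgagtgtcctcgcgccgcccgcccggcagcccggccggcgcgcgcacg
PTPRU promoter: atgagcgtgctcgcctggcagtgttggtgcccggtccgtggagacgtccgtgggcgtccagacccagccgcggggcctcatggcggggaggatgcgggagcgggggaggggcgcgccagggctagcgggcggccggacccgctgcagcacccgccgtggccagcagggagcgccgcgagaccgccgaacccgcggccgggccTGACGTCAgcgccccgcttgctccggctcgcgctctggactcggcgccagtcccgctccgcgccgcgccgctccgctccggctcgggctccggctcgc
Both are rich in G and C, at 81.3% with 55 CpG in PTPRS and 78.7% with 47 CpG in PTPRU, beside medians of 58.7% and 14 CpG over all promoters. The 1.85% of promoters with the element was not matched for G and C content. The searched promoters of PTPRG, PTPN13 and PTPN21, which also fell under the stricter rule, lacked the element. The GC box GGGCGG was present in 25 of the 49 member promoters and in 45% of all promoters. The TEAD motif GGAATG was present in 10 member promoters and 14% of all promoters, the E-box CAGGTG in 12 and 20.6%, the TATA box TATAAA in 4 and 7.33%, and the AP-1 motif TGANTCA in 1, that of PTPN9, and 7.71%. A match is a description of the letters and does not show that a factor binds there.

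The 2 other MAM-domain receptors with a value, PTPRM and PTPRK, which bind a copy of themselves on neighbouring cells and are found at cadherin junctions, were lower in the knockdown from a higher starting level. PTPRM (gene ID 5797) stood at 12.98 and 14.33 FPKM against 24.36 and 24.98 FPKM, a 1.81-fold difference (log2 difference -0.81, SE 0.06, limma adjusted p = 0.00128). PTPRK (gene ID 5796) stood at 13.22 and 12.73 FPKM against 22.19 and 23.70 FPKM, a 1.77-fold difference (log2 difference -0.78, SE 0.05, adjusted p = 0.000926). All 3 MAM-domain genes with a value thus fell (27.1% of all genes did), and in none did the groups overlap, as in 35.8% of all genes with SCR above and 39.7% with the knockdown above. The short-ectodomain receptors PTPRA and PTPRE, which can activate Src family kinases, also fell. PTPRE stood at 4.34 and 4.25 FPKM against 7.39 and 7.76 FPKM (log2 difference -0.70, SE 0.04, adjusted p = 0.000725), and PTPRA at 7.28 and 7.86 FPKM against 10.23 and 11.25 FPKM (log2 difference -0.45, SE 0.06, adjusted p = 0.00736). The PTPRA call was lost when any of the 4 libraries was left out. Exons of PTPRA overlap VPS16, a protein-coding gene on the same strand, over 558 of 4469 bases, so reads there may belong to either gene. PTPRJ, also called CD148, which dephosphorylates growth factor receptors, stood at 4.29 and 4.50 FPKM against 7.03 and 6.81 FPKM, with no overlap between groups (log2 difference -0.55, SE 0.04, adjusted p = 0.00116).

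PTPRR was the only receptor-type member tested that rose. This enzyme carries a kinase interaction motif and dephosphorylates MAP kinases. It stood at 3.65 and 3.14 FPKM in the knockdown and at 1.29 and 1.59 FPKM in SCR, about 215 and 188 reads against 83 and 95. The groups did not overlap and the means differed 2.36-fold (log2 difference 0.85, SE 0.09, limma adjusted p = 0.00369), a call that was lost when any of the 4 libraries was left out. PTPRB, the vascular endothelial phosphatase, is its neighbour on chromosome 12, on the same strand with 632 bases between them, the only pair of members within 1 Mb. PTPRB stood lower, at 0.30 and 0.35 FPKM against 0.52 and 0.52 FPKM, and its call at an adjusted p of 0.05 was lost when either SCR library was left out.

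Other receptor-type members were close between groups or barely present. PTPRH stood at 1.38 and 1.53 FPKM against 1.36 and 1.46 FPKM (log2 difference 0.03, SE 0.05, adjusted p = 0.688). PTPRD and PTPRF, the LAR-type relatives of PTPRS, did not pass the test: PTPRD stood at 0.92 and 0.92 FPKM against 0.97 and 1.06 FPKM (log2 difference -0.07, SE 0.04, adjusted p = 0.194), and PTPRF at 0.39 and 0.53 FPKM against 0.53 and 0.53 FPKM. Among the LAR-type genes the call was therefore made for PTPRS alone. PTPRZ1, the pleiotrophin receptor of glial cells and the closest relative of PTPRG, did not exceed 0.02 FPKM. PTPRO and PTPRQ did not exceed 0.04 FPKM. PTPRC, the leukocyte antigen CD45, stood at 0.82 and 0.86 FPKM against 0.40 and 0.73 FPKM and did not pass the test (adjusted p = 0.162). Of the leukocyte markers, AIF1, CD3E, MS4A1 and TYROBP had no value. Of 6 tested 0 rose and 2 fell, beside 30.8% and 27.1% of all genes. The most abundant were CSF1R, at 1.96 and 2.17 FPKM against 3.17 and 3.11 FPKM, and LYZ, at 2.93 and 1.67 FPKM against 2.26 and 2.35 FPKM. The summed level of those 6 was 6.80 and 5.68 FPKM in the knockdown and 7.96 and 7.75 FPKM in SCR.

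On the log2(FPKM + 1) scale the largest rises were those of the abundant non-receptor enzymes PTPN12 and PTPN1, while by ratio of means PTPRR (2.36-fold) lay between them. PTPN12 (gene ID 5782; chr7:77537456-77640071, plus strand), also called PTP-PEST, which acts on the adhesion adaptor BCAR1 (p130Cas), stood at 74.65 and 75.27 FPKM in the knockdown and at 29.22 and 30.28 FPKM in SCR. Both knockdown libraries were far above both SCR libraries, and the means differed 2.52-fold (log2 difference 1.30, SE 0.03, limma adjusted p = 0.000287). It moved from position 2580 to position 1014 in the ranking of all genes by level. PTPN1 (gene ID 5770; chr20:50510321-50584762, plus strand), the endoplasmic reticulum enzyme PTP1B that dephosphorylates the insulin receptor, stood at 56.30 and 54.92 FPKM against 28.35 and 28.88 FPKM. The groups did not overlap, and the 1.94-fold difference of means (log2 difference 0.93, SE 0.03, limma adjusted p = 0.000385) fell short of the 2-fold rule. Its close relative PTPN2 (TC-PTP), which acts on JAK kinases, stood at 16.11 and 13.62 FPKM against 13.79 and 12.73 FPKM, with overlapping groups (log2 difference 0.15, SE 0.10, adjusted p = 0.27). Processed pseudogenes of PTPN2 exist, so its reads may be shared with them.

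PTPN22 and PTPN23 passed the test with small differences. PTPN22, a PEST-type enzyme known from lymphocytes, stood at 6.22 and 6.30 FPKM against 5.21 and 4.54 FPKM (log2 difference 0.31, SE 0.07, adjusted p = 0.0234), and its call was lost when either knockdown library was left out. PTPN23, which takes part in endosomal sorting of receptors, stood at 23.78 and 24.11 FPKM against 20.03 and 20.64 FPKM (log2 difference 0.23, SE 0.03, adjusted p = 0.00758), a call likewise lost without either knockdown library. With the trends of transcript length and GC content removed, a setting chosen after the data were seen, the log2 difference was 0.05 for PTPN22 (adjusted p = 0.544) and 0.58 for PTPN23. PTPN18, the PEST-type relative, stood at 6.89 and 8.61 FPKM against 10.93 and 10.12 FPKM (log2 difference -0.40, SE 0.11, adjusted p = 0.0475), a fall that did not pass when any of the 4 libraries was left out.

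Of the 5 non-receptor enzymes with a FERM domain, which ties proteins to the membrane skeleton, 4 fell and 1 did not pass, where 27.1% of all genes fell. PTPN13 (gene ID 5783; chr4:86594315-86815176, plus strand), a large PDZ-domain protein, stood at 2.28 and 2.22 FPKM against 7.71 and 8.36 FPKM, about 329 and 326 reads against 1221 and 1223. Its means differed 3.57-fold (log2 difference -1.47, SE 0.05, limma adjusted p = 0.000364). PTPN21 (gene ID 11099; chr14:88465778-88554779, minus strand) stood at 3.82 and 3.8 FPKM against 9.24 and 9.38 FPKM, a 2.44-fold difference (log2 difference -1.10, SE 0.03, adjusted p = 0.000298). In both genes the replicates of a group lay close together and the groups were far apart. PTPN14, a partner of the transcriptional coactivator YAP and the member with a seed match in its 3′ UTR, stood at 7.14 and 7.91 FPKM against 11.97 and 13.24 FPKM (log2 difference -0.67, SE 0.07, adjusted p = 0.00366), a call lost without knockdown replicate 1 or either SCR library. PTPN4 stood at 1.63 and 1.54 FPKM against 2.76 and 2.77 FPKM (log2 difference -0.54, SE 0.03, adjusted p = 0.000949). Its PDZ-domain relative PTPN3 stood at 7.35 and 7.28 FPKM against 6.95 and 7.39 FPKM, with overlapping groups (log2 difference 0.03, SE 0.04, adjusted p = 0.631). Exons of PTPN14 overlap the pseudogene KRT18P12 over 1213 of 18756 bases and those of PTPN13 overlap MAPK10 over 311 of 9496 bases. Those of PTPN21 overlap SPATA7, a protein-coding gene on the other strand, over 204 of 7396 bases.

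Several widely expressed enzymes did not pass the test. PTPN11 (SHP2), the SH2-domain enzyme that carries growth factor signals towards Ras, stood at 50.41 and 52.34 FPKM against 52.44 and 55.87 FPKM. The higher knockdown value nearly met the lower SCR value, and the log2 difference was -0.07 (SE 0.05, limma adjusted p = 0.269). Exons of PTPN11 overlap RPL6, a protein-coding gene on the other strand, over 111 of 7023 bases. PTPN9, a lipid-binding enzyme of secretory vesicles, stood at 19.88 and 20.21 FPKM against 19.40 and 19.72 FPKM (log2 difference 0.03, SE 0.03, adjusted p = 0.418). PTPN5, PTPN6, PTPN7 and PTPN20, known mainly from brain, blood cells and testis, did not exceed 0.10 FPKM in any library.

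Summed over the family the level was close between groups, at 334.4 and 338.2 FPKM in the knockdown and 329.1 and 341.9 FPKM in SCR. Its makeup differed. Receptor-type genes summed to 57.8 and 60.0 FPKM in the knockdown and to 111.0 and 117.8 FPKM in SCR, which is 17.3% and 17.7% of the family sum against 33.7% and 34.5%. Non-receptor genes summed to 276.6 and 278.2 FPKM against 218.1 and 224.1 FPKM. The groups did not overlap in either class, and with 2 libraries a group an exact two-sided permutation test cannot go below p = 0.333, so no p is given. By type, the MAM-domain receptors held 8.0% and 8.3% of the family sum against 16.5% and 16.7%, the LAR-type receptors 0.8% and 0.9% against 4.3% and 4.4%, and the FERM enzymes summed to 22.2 and 22.8 FPKM against 38.6 and 41.1 FPKM. The PEST enzymes held 26.2% and 26.7% against 13.8% and 13.1%, most of it PTPN12, and PTPN1 with PTPN2 held 21.7% and 20.3% against 12.8% and 12.2%. The SH2 enzymes, nearly all PTPN11, held 15.1% and 15.5% against 15.9% and 16.4%. In the knockdown the 4 most abundant members, PTPN12, PTPN1, PTPN11 and PTPN23, held 61.3% and 61.1% of the sum. In SCR the 4 most abundant, PTPN11, PTPN12, PTPN1 and PTPRM, held 40.8% and 41.0%.

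**Figure D3:**
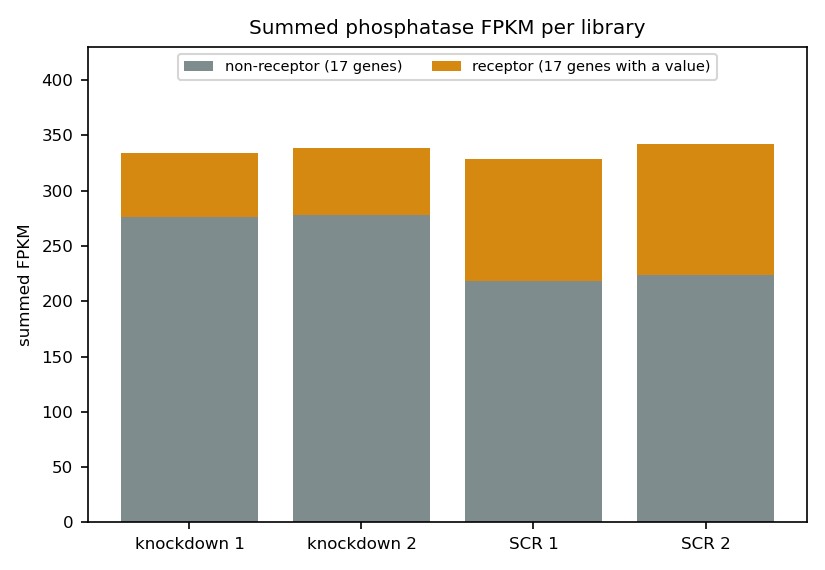
FPKM summed over the 17 non-receptor (grey) and the 17 receptor-type (orange) genes with a value, stacked, for each of the 4 libraries. The total bars are of similar height, between 329.1 and 341.9 FPKM, while the receptor-type portion is 57.8 and 60.0 FPKM in the knockdown and 111.0 and 117.8 FPKM in SCR.

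The partners of the family were taken from lists of ligands, adaptors, substrates, opposing kinases and related phosphatases. Of 27 ligands and partners of receptor phosphatases 19 were tested, of which 1 rose and 9 fell (against 30.8% and 27.1% of all genes), with a median log2 difference of -0.07 beside 0.01 over all genes. Agrin (AGRN), a heparan sulfate proteoglycan ligand of LAR-type receptors, stood at 17.67 and 17.77 FPKM against 61.78 and 58.23 FPKM (log2 difference -1.70, SE 0.04, limma adjusted p = 0.000268). Pleiotrophin (PTN), the ligand of PTPRZ1 and PTPRS, stood at 18.38 and 18.61 FPKM against 52.58 and 47.94 FPKM (log2 difference -1.39, SE 0.06, adjusted p = 0.000466). Syndecan-2 (SDC2) fell by 2.06 and midkine (MDK) fell by 0.62 on the log2 scale, the latter a call lost without either knockdown library or without SCR replicate 2. Perlecan (HSPG2, -2.72) and thrombospondin-1 (THBS1, -2.33) were the other partners that passed the stricter rule, named after their values were seen.

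Of 23 adaptors and scaffolds 2 rose and 10 fell (median -0.11), beside 30.8% and 27.1% of all genes. BCAR1, the PTPN12 substrate, stood at 43.86 and 45.42 FPKM against 64.67 and 60.62 FPKM (log2 difference -0.48, SE 0.05, limma adjusted p = 0.00277). With length and GC trends removed it was -0.15, and its call was lost without either knockdown library. GRB2, the adaptor that joins receptors and SHP2 to Ras, differed by 0.27 on the log2 scale (adjusted p = 0.00388). TRIO, which binds LAR-type receptors, fell by 0.30, a call lost when any of the 4 libraries was left out and with length and GC trends removed (-0.07, adjusted p = 0.173). Liprin-alpha-1 (PPFIA1), a scaffold of LAR-type receptors, rose, at 26.12 and 27.29 FPKM against 18.57 and 19.04 FPKM (log2 difference 0.48, adjusted p = 0.00159). Its relative liprin-alpha-4 (PPFIA4) was the only adaptor that passed the stricter rule, at 0.66 and 0.60 FPKM against 5.27 and 5.08 FPKM, and was named after its value was seen. Of 31 known substrates 13 rose and 12 fell (median 0.10), beside 30.8% and 27.1% of all genes. The most abundant called substrates differed little, with VCP at 0.18, CTNNB1 at 0.14 and MAPK3 at -0.31 on the log2 scale, and the sign of CTNNB1 turned under quantile normalization (-0.0024). The call of CTNNB1 was lost without either knockdown library or SCR replicate 1, that of MAPK3 without knockdown replicate 2 or either SCR library, and VCP did not pass under quantile normalization (0.04). With length and GC trends removed MAPK3 was at -0.16 and CTNNB1 at 0.02, the latter no longer passing. The receptor kinases PDGFRB (-1.60) and EPHA2 (-1.18) passed the stricter rule and were named after their values were seen.

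Of 31 cytoplasmic tyrosine kinases 11 rose and 3 fell (median 0.01), beside 30.8% and 27.1% of all genes. JAK1 (0.24) and FYN (-0.18) were the most abundant called kinases, and both calls were lost when any of the 4 libraries was left out. ABL1 stood at 25.54 and 24.87 FPKM against 49.65 and 48.13 FPKM (log2 difference -0.93, SE 0.03, limma adjusted p = 0.000427), and the focal adhesion kinase PTK2 at 33.41 and 32.86 FPKM against 23.69 and 23.55 FPKM (log2 difference 0.47, SE 0.03, adjusted p = 0.000971). Of 57 other phosphatases, mostly of the cysteine-based superfamily, 53 were tested. Among these 19 rose and 20 fell (median 0.04), beside 30.8% and 27.1% of all genes. The list also holds the EYA phosphatases, which are not cysteine-based, and their calls are part of these counts. The MAP kinase phosphatase DUSP1 stood at 72.51 and 70.00 FPKM against 44.32 and 44.26 FPKM (log2 difference 0.67, adjusted p = 0.000641). PTP4A2 (-0.17), CDKN3 (0.82) and ACP1 (0.36) were the other most abundant called genes. With length and GC trends removed ACP1 was at 0.06 (adjusted p = 0.179), CDKN3 at 0.45 and PTP4A2 at -0.28, and PTP4A2 did not pass with a pseudocount of 0.1 or without either knockdown library or SCR replicate 2. By the stricter rule 4 of this list rose and 5 fell, beside 2.63% and 4.06% of all genes, and all were named after their values were seen. The risers were MTMR1 (1.85), the MAP kinase phosphatases DUSP6 (1.63) and DUSP5 (1.35) and the cell cycle phosphatase CDC25A (1.58). The fallers were MTMR4 (-1.52), EYA1 (-1.24) and the focal adhesion proteins TNS1 (-1.34), TNS2 (-1.51) and TNS3 (-1.32). Other MAP kinase phosphatases, likewise named after their values were seen, went both ways at an adjusted p of 0.05. DUSP16 (0.53) was higher, and DUSP4 (-0.56) and DUSP8 (-0.47) were lower. Of the 9 glial markers tested 4 rose and 3 fell, beside 30.8% and 27.1% of all genes. VIM and CD44 were among those that rose, and NES (-1.78), SOX9 (-1.58) and GFAP (-0.37) fell. The summed level below is that of all 9 markers. This summed level, 5091 and 4886 FPKM against 2175 and 2096 FPKM, is nearly all VIM, and the part of these markers in the differences above was not tested.

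The stricter calls were lost, for all 6 members, with a pseudocount of 0.1, with the replicate block and with any library left out. At the wider threshold most calls held: of the 18 members called at a mean of at least 1 FPKM, 12 stayed past an adjusted p of 0.05 in every alternative run, 10 of them lower (PTPRS, PTPRU, PTPRG, PTPRM, PTPRK, PTPRE, PTPRJ, PTPN13, PTPN21 and PTPN4) and 2 higher (PTPN12 and PTPN1). Over the alternatives the log2 difference ranged from -3.14 to -2.13 for PTPRS, from -3.23 to -1.99 for PTPRU, from -1.79 to -1.42 for PTPN13 and from 1.12 to 1.33 for PTPN12.

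**Figure D4:**
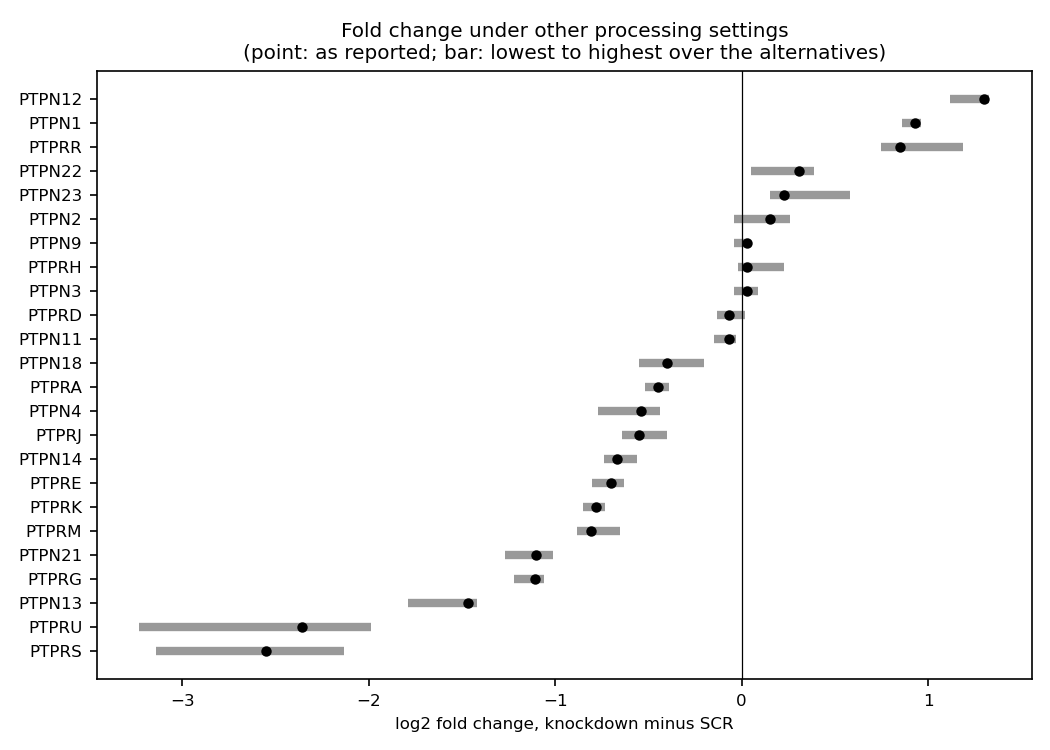
Log2 fold change, knockdown minus SCR, of the 24 members with a mean of at least 1 FPKM in the higher group, with points for the value as reported and bars from the lowest to the highest value over the alternatives. The bars of PTPRS and PTPRU are the widest (-3.14 to -2.13 and -3.23 to -1.99), and neither they nor the bars of PTPN12 (1.12 to 1.33) and PTPN1 (0.86 to 0.96) reach 0.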

How the data were processed

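The authors deposited FPKM per gene for each library, from single-end reads of 50 bases, and the submitters' processing notes name HISAT2 2.1.0 and hg19, although the gene positions in the table match GRCh38, the build used for every position here. The counting program, and whether it used strand, is not given in the sources used here. Columns of log2 fold changes and p- and q-values from the authors' own comparison were not used. The 2 deposited tables gave the same 66380 values, and 2719 genes without a value were left out. Because FPKM are not counts, log2(FPKM + 1) was fitted with limma 3.58.1 in R 4.3.3 (default empirical Bayes, Benjamini-Hochberg adjustment over all 16595 genes with an FPKM above 0 in any library), 2 knockdown against 2 SCR libraries. The steps were tested on simulated data. Calls used an adjusted p of at most 0.05, or a fold change of at least 2 (on the FPKM + 1 scale) with an adjusted p of at most 0.001, as in the study. The fold differences of means are ratios of mean FPKM. Depth was estimated from the FPKM worth of 1 read in genes with 1 transcript of 500 to 900 bases, and read numbers per gene from that and the longest transcript are approximate. Between replicates the median squared difference, scaled to the level, was 1.5 (knockdown) and 1.79 (SCR) times that of counting alone. These are ratios of variances. Members with a mean of at least 1 FPKM in the higher group are given with level, log2 difference, SE and adjusted p, and others with their level. By rule at most 4 genes were named from each list, those with the highest mean FPKM among the called. Any other list or marker gene was named after the values were seen, also where this is not said beside it. The members and lists were chosen with earlier results of these data known. GENCODE 29 gave transcripts and exon overlaps, RefSeq the promoters, and the study's supplement the hairpin target. Alternatives changed the pseudocount, the filter, the scaling, the spread model, the threshold, the replicate term, the libraries used and, added after seeing the data, the length and GC trends. The labels list no batch. A leukocyte marker of the list is not reported here.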

Additional observations from a re-analysis of the deposited data

How the results depend on the processing

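With a pseudocount of 0.1, with the replicate block, and with any 1 library left out, 0 genes and 0 members passed the stricter rule (fold change of at least 2, adjusted p of at most 0.001), against 1111 genes and 6 members as reported. The lowest adjusted p of any gene in those limma fits was 0.00122, 0.00396 and 0.0226, so the threshold could not be reached. At an unadjusted p under 0.05 they called 10185, 10108 and 8700 to 8790 genes and 21, 18 and 17 to 20 members. PTPRS, PTPRU, PTPRG, PTPN13, PTPN21 and PTPN12 kept a fold change of at least 2 at an adjusted p of 0.05 in each of these fits. Other settings left 6 members and 1126 to 1289 genes past the stricter rule, and an adjusted p of 0.05 in its place gave 1296 genes. Leaving out 1 library gave 6181 to 6332 genes at an adjusted p of 0.05 (9603 as reported), 10 to 12 lower members (14) and 2 to 5 higher members (5), with 2 when either knockdown library was missing. For a left-out library the remaining lone sample is assumed to vary like the other group. Same-numbered libraries did not deviate together (correlation 0.0635 over 11272 genes), so the number was not taken as a pairing, and the replicate block gave 5 higher and 13 lower members. With length and GC trends removed, a setting chosen after seeing the data, 8 members were called higher. They included PTPN5, PTPN7 and PTPRF, each under 1 FPKM in all 4 libraries. The trend was also subtracted at levels near 0, so such calls need not be rises in FPKM. PTPN5 had 0 FPKM in both knockdown libraries and 0.05 and 0.06 FPKM in SCR. With a pseudocount of 0.1, and with a spread model that follows the level, PTPN5 was called lower instead. That pseudocount also called PTPRQ higher, at 0.03 and 0.04 FPKM in the knockdown against 0.01 and 0.01 FPKM in SCR. In the same setting PTPRH (0.23) and PTPN11 (-0.12) passed, and PTPN22 and PTPN18 did not. CTNNB1 reversed under quantile normalization (-0.0024). PTPN18 was lost in 7 alternatives, and PTPRA, PTPRR, PTPN14, PTPN22, PTPN23 and PTPRB (under 1 FPKM) in at least 1. PTPRN ranged from -2.83 to -2.45. Levels under about 0.1 FPKM rest on a few reads.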
